A study of Ambystoma mexicanum with 7 samples.

Results

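In the axolotl (Ambystoma mexicanum), 7 miRNA names were examined that either were taken from fragments of other RNAs or are rich in G and C: miR-720, miR-1280, miR-739, miR-762, miR-705, miR-663 and miR-1607. They were chosen because measured signals of the same arrays had been higher in blastema than in stump, so every blastema and stump value of these names below is a description and carries no test. Probes were taken by exact name, whatever the vertebrate species of the entry. All 7 names had reporters on the LC Sciences chip (11 of 1974 reporters), and 5 had probes on the Exiqon array (6 of 2021 named probes). No Exiqon probe carried the names miR-1280 or miR-1607.

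The stump group was hindlimb tissue of white axolotls taken at amputation, with skin, bone, muscle and nerve fibres in it. The blastema group was the mid-bud blastema of the same 3 animals (numbered 368, 369 and 378) at 17 days post amputation (dpa). Exiqon measured each sample in Hy3 against a common reference pool in Hy5 on 6 arrays with locked nucleic acid probes. LC Sciences measured both samples of an animal together on 1 of 3 arrays of probes made in place, with the dyes exchanged between the array of animal 368 and the other arrays. The 3 samples of a group came from different animals, which were the replicates.

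A miRNA is cut from a hairpin precursor and guides Argonaute proteins to target RNAs, mainly through its seed, bases 2 to 8 from the 5′ end. Array probes capture any RNA of matching sequence, so a fragment of a tRNA or rRNA can give signal under a miRNA name. The sequence of miR-720 lies in a threonine tRNA and that of miR-1280 in a leucine tRNA, and both names were later taken out of the miRNA registry. The name miR-663 comes from primates, miR-739 from zebrafish, miR-705 and miR-762 from mouse, and miR-1607 from chicken. All the probes thus come from other species, and the axolotl RNA behind each signal was not identified.

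The target sequences that LC Sciences gave for its reporters are shown because the probes were made to capture them, with the seed in capitals.
hsa-miR-720: uCUCGCUGgggccucca
hsa-miR-1280: uCCCACCGcugccaccc
dre-miR-739: aGGCCGAAguggagaaggguu
gga-miR-739: aGGCCGAAguggagcaggguu
mmu-miR-762: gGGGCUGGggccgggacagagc
gga-miR-762: gGGGCUUUggggagggagggga
mmu-miR-705: gGUGGGAGguggggugggca
hsa-miR-663: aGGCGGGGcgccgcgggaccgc
gga-miR-1607: aGGGGCGGgaggggucgggc

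The 11 reporters held 10 different sequences with 9 different seeds. The reporter of mouse miR-720 has 1 extra base at the 5′ end of the human sequence, which moves its seed. The zebrafish and chicken sequences of miR-739 share a seed and differ by A15C, counted from 1 at the 5′ end with the zebrafish base first. The mouse and chicken sequences of miR-762 are of equal length and differ at 10 positions. The GC content of the 11 reporters was 57.1% to 90.9% with a median of 72.7%, against a median of 47.6% over the other 1963 reporters of the chip. The motif GGGG occurred in 7 of the 11 targets and in 4.64% of the others, while CCCC occurred in 0 of the 11 and in 4.43% of the others (whole target, target strand for both motifs). The targets of miR-1280 and miR-739 have no GGGG, so the motif does not cover the whole set.

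On the LC Sciences chip, the normalized signals of both reporters of the tRNA-derived miR-720 were high in every blastema. The values of hsa-miR-720 were 2546, 4550 and 1099 in the blastemas of animals 368, 369 and 378, and 265, 267 and 311 in their stumps. The reporter of mouse miR-720 read 4023, 8433 and 2222 in blastema and 456, 372 and 421 in stump. The 3 stumps lay close together and the blastemas spread, with animal 369 highest and animal 378 lowest for both reporters. The blastema minus stump differences were 3.06 ± 1.15 and 3.35 ± 1.07 on the log2 scale (SD over n = 3 animals).

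The other tRNA-derived name, miR-1280, had a smaller spread between animals. Its signals were 7890, 9991 and 7061 in blastema and 1101, 1120 and 1043 in stump, a difference of 2.92 ± 0.21 (log2, SD, n = 3). The groups did not overlap. Among all reporters its signal ranked at percentiles 99.5 to 99.7 in blastema and 91.6 to 92.2 in stump, so it was well detected in both tissues.

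The 3 reporters of miR-739 did not behave alike. The reporter dre-miR-739 read 3964, 3254 and 2757 in blastema and 1189, 959 and 823 in stump, a difference of 1.75 ± 0.01 (log2, SD, n = 3), and the second reporter of the same sequence gave 1.74 ± 0.19. The reporter gga-miR-739, with the A15C change, read 81, 123 and 113 in blastema and 112, 51 and 53 in stump, so its groups overlapped (0.63 ± 0.96). It was the single reporter of the 11 whose groups overlapped on the company's scale.

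The G-rich names miR-762, miR-705 and miR-1607 showed large and steady differences. The reporter of mouse miR-762 read 2475, 2525 and 2788 in blastema and 180, 351 and 197 in stump (3.48 ± 0.55), and gga-miR-762 read 277, 263 and 362 against 47, 44 and 29 (2.88 ± 0.54). The lowest of these stump values, 29, was set to 32, a floor put on all these signals, so the difference of gga-miR-762 is partly set by that floor. The mouse sequence gave the larger difference in all 3 animals. The values of gga-miR-1607 were 1397, 945 and 868 in blastema and 114, 126 and 94 in stump (3.24 ± 0.36). The reporter of mouse miR-705 had low signals, at 231, 213 and 368 in blastema and 41, 47 and 50 in stump (2.52 ± 0.35). All 3 names had every blastema above every stump, as had 30.0% of the 500 reporters that reached 32 in all samples of a group.

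The most GC-rich name, miR-663, was near the detection limit. Its reporter read 63, 93 and 108 in blastema and 29, 10 and 25 in stump. All 3 stump values were under the floor of 32. The mean blastema signal (log2 scale) was 2.68-fold the floor, so it was at least 2.68-fold the stump signal, a bound that rests on the floor.

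**Figure D1:**
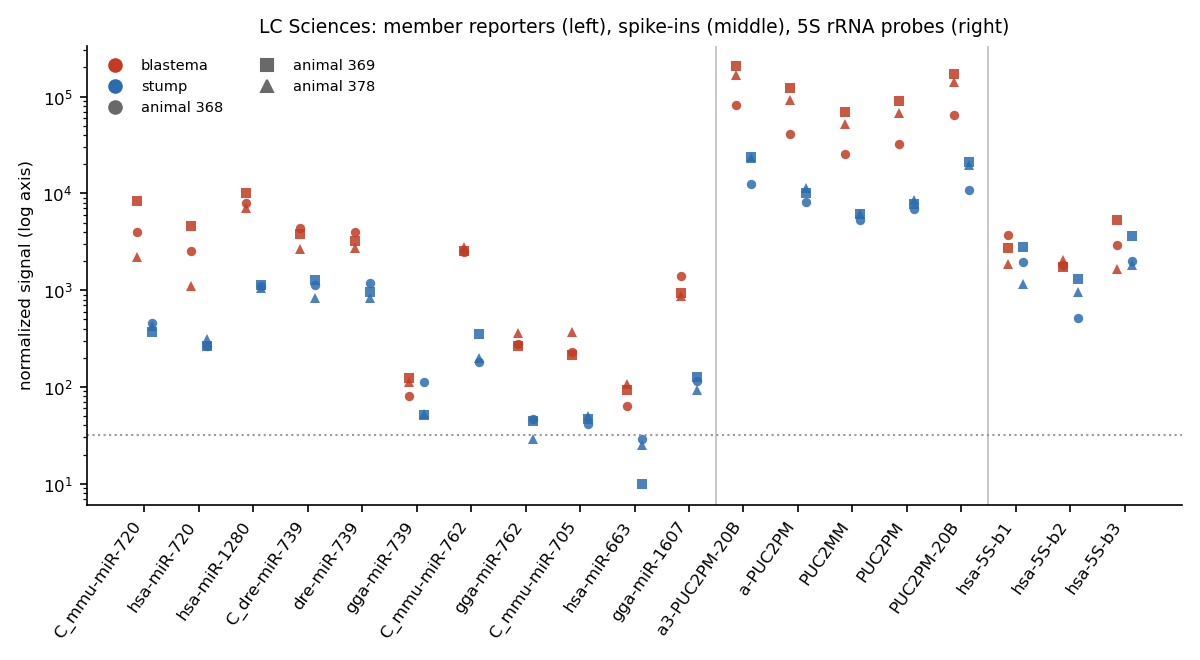
Normalized LC Sciences signal (log axis) of the 11 member reporters, the 5 bright spike-in probes and the 3 probes for 5S rRNA in each sample. Colours give the tissue, symbols the animal, and the dotted line the floor of 32. The spike-in probes are separated by tissue as widely as most member reporters, while the tissues overlap for 2 of the 3 probes for 5S rRNA.

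Over the 500 reporters that reached 32 in all samples of a group, limma called 129 higher in blastema (25.8%), and 10 of the 11 member reporters were among them (all but gga-miR-739). Every blastema lay above every stump in 30.0% of the 500 reporters and in 10 of the 11. Nothing is read from these counts, because the names were chosen on this contrast. The median difference over the 7 names was 2.92 ± 0.06 (SD of the medians of the 3 animals), against 0.01 over all 500 reporters. Single names varied more between animals, with SDs of 0.21 (miR-1280) to 1.09 (miR-720). In tissue arrays such as these, a change in the share of a cell type and a change in RNA per cell cannot be told apart.

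The bright spike-in controls of the chip, RNA added from outside the sample, showed a difference of the same size. The 5 bright spike-in probes were 2.92 ± 0.46 higher in blastema on the company's scale (log2, SD, n = 3), with 2.43, 3.36 and 2.96 in the 3 animals. The probe PUC2PM, for example, read 32610, 90713 and 67813 in blastema and 6862, 7739 and 8480 in stump. PUC2MM, another of the 5, is a mismatch probe by its name and differed by 2.96. The sources used here do not give the amount of control RNA added to each sample. The 3 dimmer mismatch control probes differed by 0.50 ± 0.51. The brightest of them, a-PUC2MM2d, differed by 1.39, and the others lay near the floor of 32. The 3 probes for 5S rRNA, an endogenous ribosomal RNA, differed by 0.66 ± 0.41.

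With each sample scaled to the mean of its spike-in probes, the median over the 7 names was 0.00096 in place of 2.92, and the median over all 500 reporters moved to -2.71. The differences were 0.29 for miR-720, 0.00096 for miR-1280, 0.29 for miR-762 and 0.32 for miR-1607, and turned to -0.40 for miR-705, -0.72 for miR-663 and -1.53 for miR-739. The value of miR-663 is set by the floor here. On this scale 0 of the 11 reporters were called higher (0.400% of all) and 1, gga-miR-739, was called lower (84.6% of all). In 0 of the 11 did every blastema lie above every stump (0.800% of all).

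The array of animal 368 was also read from its spots as scanned. Its blastema was in Cy3 and stump in Cy5, so tissue and dye cannot be told apart there. The background was taken as the median of the miRNA spots in each channel (324.7 for blastema, 45.4 for stump). After taking it off, the spike-in probes differed by -0.17, with a range of -0.25 to -0.09. The median over the 437 reporters that passed the filter and were over 32 in both channels was -0.87. The median reporter thus lay below the spike-ins. Of the 11 member reporters, 9 were over 32 in both channels, and 8 of those 9 were higher in blastema relative to the spike-ins. Nothing is read from this count, because the names were chosen on these arrays and the 437 reporters were not counted in this way. The differences relative to the spike-ins were 1.95 and 2.20 for the reporters of miR-720 and 1.35 for miR-1280. They were 2.82 and 3.16 for miR-762 and 2.93 for miR-1607. The 3.16, of gga-miR-762, rests on a stump signal of 33.8, just over 32. For miR-739 the differences were 0.70 and 0.49 for the zebrafish sequence and -0.24 for the chicken one. The names miR-705 and miR-663 were under 32 in the stump channel.

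From these spot values to the company's signals, the differences changed by unequal amounts. The company took off its own background, so the changes are not those of its normalization alone. On the same array the difference of the spike-in probes rose by 2.38 to 2.82 and that of miR-1280 by 1.66, from 1.18 to 2.84. The reporters of miR-720 rose by 1.37 and 1.24, gga-miR-1607 by 0.86 and the median reporter by 1.21, and the dim gga-miR-762 changed by -0.43. On this array the spike-in probes thus moved further than any of the 9 member reporters. They were also far brighter, at 15349 to 49244 over the channels after background, against 33.8 to 5059 for the 9 member reporters. The part of brightness was not tested.

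**Figure D2:**
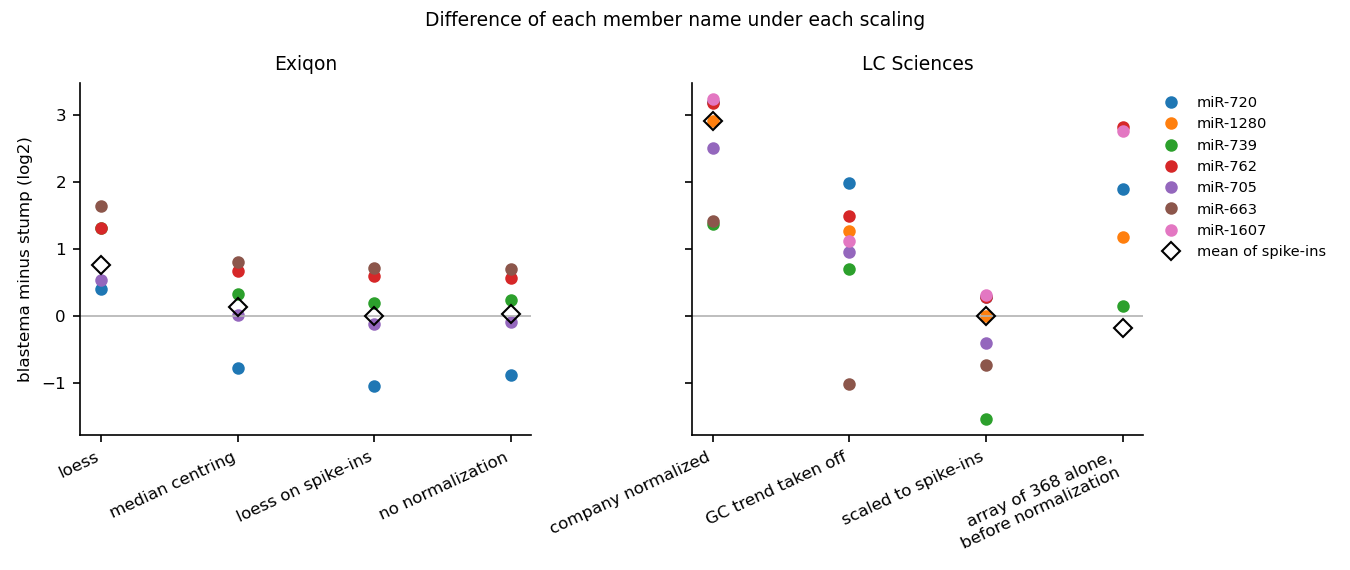
Blastema minus stump difference (log2) of each name, averaged over its probes, under each scaling on Exiqon (left) and LC Sciences (right). Diamonds give the mean of the spike-in controls, which is 0 by construction where samples were scaled to them. On LC Sciences the spike-ins sit among the names at 2.92 after the company's normalization and at -0.17, below every name shown, before it.

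The difference rose with GC content over the other reporters of the chip. A line through the 489 other reporters that passed the filter had a slope of 0.55 per 10 points of GC (log2), with 0.66, 0.51 and 0.49 in animals 368, 369 and 378 and 0.63 before normalization on the array of animal 368. The slope was 0.54 for reporters under 65% GC and 0.28 between 35% and 65%, over 454 reporters. The 29 reporters under 35% GC had a median of -1.30, and 11 of the 29 were above 0. They include the muscle miRNAs miR-1 and miR-499 in reporters of several species, such as hsa-miR-1 (-3.47) and dre-miR-499 (-4.92). Reporters of the same miRNA from several species were counted separately in the line. Of the 11 member reporters, 9 lay above the line, by 0.96 (miR-705) to 2.25 (mouse miR-720). The reporter gga-miR-739 lay 0.20 below it and hsa-miR-663 1.02 below it. The 30 other reporters from 55% to 65% GC, where 3 of the 11 member reporters lie, had a median of 0.23. The 20 others at or over 60% that passed the filter, of 262 on the chip, had a median of 0.42. Above 0 were 16 of the 20, against 225 of 469 under 60%. The 6 others at or over 65% GC were gga-miR-1576, gga-miR-1584, gga-miR-1770, gga-miR-1777, hsa-miR-1469 and hsa-miR-638, which were picked out after their values were seen, and all 6 were above 0 (median 2.41). Scaled to the spike-ins, 5 of the 6 were below 0 (median -0.40), against a median of -2.71 over all reporters tested. The 8 other reporters with GGGG that passed the filter, of 91 on the chip, were all above 0 (median 1.59), and 4 of them are among those 6. Without GGGG, 233 of 481 were above 0. Scaled to the spike-ins, 7 of the 8 were below 0 (median -1.31). A dim reporter can pass the filter through its higher group alone, so these counts above 0 are a description only. The part of GC content in the members' differences was not tested.

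**Figure D3:**
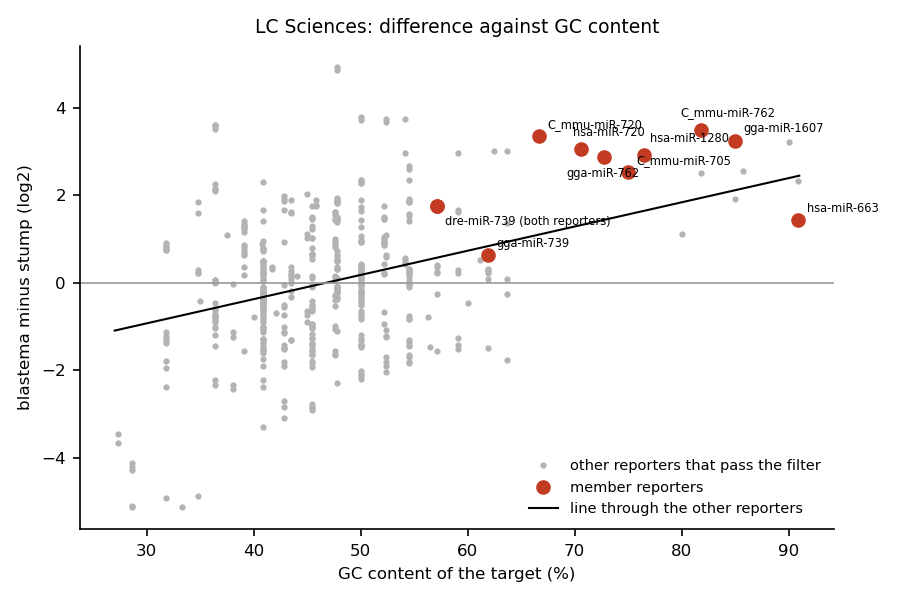
Blastema minus stump difference (log2, mean of 3 animals, company's normalized signals) against the GC content of the target. Grey points are the other 489 reporters that passed the filter, red points the 11 member reporters, and the line is fitted to the grey points. The 6 grey points at or over 65% GC are all above 0, as are the member reporters.

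On the Exiqon array, 5 of the 6 probes ranked between percentiles 87.9 and 99.5 of named probes by Hy3 signal, and the second probe of miR-705 between 68.1 and 78.3. All 6 were brighter than the 7 negative control probes on all 6 arrays. Over the spots of a probe on an array the coefficient of variation was at most 7.40%.

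The probe of miR-720 did not have higher scanned Hy3 signals in blastema. They were 2499, 2924 and 3215 in blastema and 6219, 3333 and 3170 in stump. After loess within arrays its difference was 0.41 ± 0.25 (log2, SD, n = 3) with every blastema above every stump. After median centring it was -0.78 ± 0.52 with every blastema below every stump, a separation that was not counted over all probes. The direction of miR-720 on Exiqon thus depended on the normalization.

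The probe of miR-663 was higher in blastema in scanned signal and under each normalization. Its Hy3 signals were 1026, 903 and 1017 in blastema and 692, 448 and 456 in stump. The difference was 1.64 ± 0.21 with loess, 0.81 ± 0.44 with median centring and 0.72 ± 0.49 with a loess through the spike-in probes. The groups did not overlap in any of them.

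The probe of miR-762 read 522, 510 and 675 in blastema and 455, 315 and 279 in stump. Its difference was 1.32 ± 0.37 with loess, 0.67 ± 0.68 with median centring and 0.60 ± 0.71 with a loess through the spike-ins, where the groups overlapped. The probe of miR-739 read 1123, 1841 and 1792 in blastema and 1375, 982 and 864 in stump. The difference of miR-739 was 1.31 ± 0.34 with loess and 0.34 ± 0.76 with median centring, where the groups overlapped. Animal 368 then went against the others, at -0.52 beside 0.63 and 0.90. Its arrays had 1987 (blastema) and 1553 (stump) flagged spots, against 521 to 545 on the arrays of the other animals. All 24 spots of the miR-739 probe were kept, and the part of array quality was not tested.

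The main probe of miR-705 read 469, 643 and 820 in blastema and 840, 586 and 592 in stump, so its groups overlapped. Its difference was 0.61 ± 0.25 with loess and -0.13 ± 0.57 with median centring. The second probe read 152, 157 and 187 in blastema and 167, 141 and 146 in stump, with differences of 0.48 ± 0.04 and 0.16 ± 0.29. Neither probe was separated by tissue in scanned signal or with median centring.

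**Figure D4:**
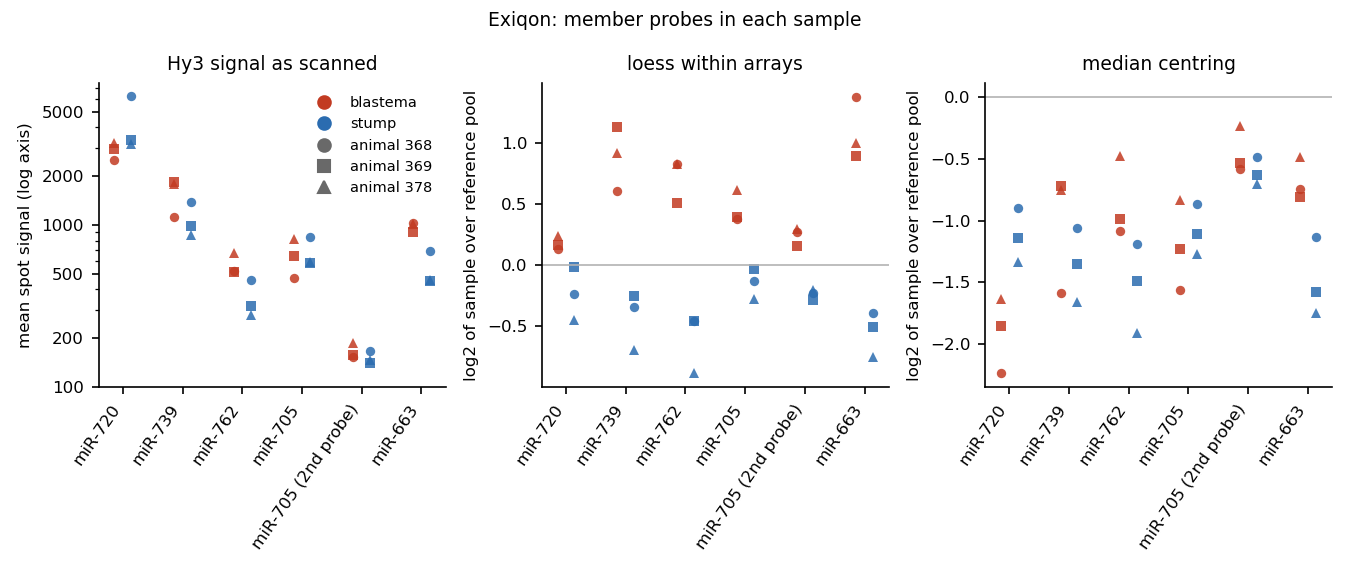
Exiqon member probes in each sample as scanned Hy3 signal (left, log axis), log2 ratio to the reference pool after loess (middle) and after median centring (right). Colours give the tissue and symbols the animal. All 6 probes are separated by tissue after loess, while after median centring miR-762 and miR-663 have every blastema above every stump and miR-720 has every blastema below. Over all probes, 16.5% had every blastema above every stump after loess and 12.3% after median centring. The share with every blastema below was not counted.

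With loess, limma called 5 of the 6 probes (all but miR-720) higher in blastema, against 9.58% of 2015 probes tested. Every blastema lay above every stump in 6 of the 6, against 16.5% of the 2009 probes with a value in each sample. Without animal 378, 3 of the 6 were called (80 of 2010 over all probes), since both probes of miR-705 were lost. The probe of miR-720 was called higher with the deposited ratios (0.41; 145 of 403 over all probes). It was also called with no background correction (0.69; 214 of 2015) and with only probes above the negative controls tested (0.41; 232 of 972). With median centring 1 of the 6, miR-663, was called higher (2.73% of all) and 1, miR-720, lower (13.1% of all), and in 2 of the 6 every blastema was above every stump (12.3% of all). Nothing is read from these counts either. The median over the 5 names was 1.31 ± 0.38 with loess and 0.34 with median centring, against -0.002 and 0.02 over all probes.

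The 10 Exiqon spike-in controls also depended on the normalization. Before any normalization within arrays their differences were -0.10 to 0.22. With median centring they were 0.00 to 0.31, and with loess -0.05 to 1.52, where the 4 spike-ins with a mean signal over 1000 were at 1.07 to 1.52. The mean over the 10 was 0.76 with loess and 0.14 with median centring. The loess added 0.32 (second probe of miR-705) to 1.19 (miR-720) to the member probes relative to median centring. With a loess drawn through the spike-ins, miR-663 and miR-762 were at 0.72 and 0.60 and miR-720 was at -1.04.

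**Figure D5:**
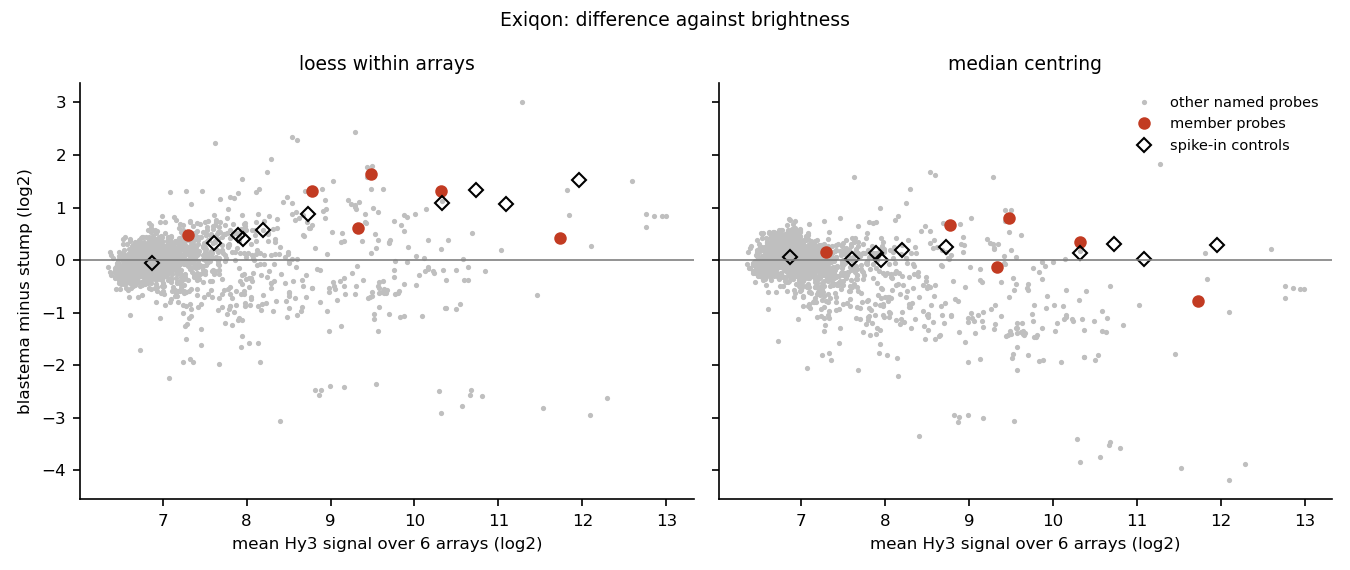
Blastema minus stump difference (log2, mean of 3 animals) against the mean Hy3 signal (log2) for named probes (grey), member probes (red) and the 10 spike-in controls (diamonds), with loess (left) and median centring (right). The spike-ins rise with brightness to 1.52 with loess and stay between 0.00 and 0.31 with median centring.

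The 5 names on both platforms can be set side by side, with the LC Sciences value on the company's scale and the Exiqon value with loess. The differences were 3.20 and 0.41 for miR-720, 3.18 and 1.32 for miR-762, 2.52 and 0.54 for miR-705, 1.37 and 1.31 for miR-739, and 1.42 (with stump at the floor) and 1.64 for miR-663, each averaged over the probes of the name. Both platforms used aliquots of the same RNA, so they are not independent samples. Other scales gave other values. With median centring the Exiqon values were -0.78 for miR-720, 0.67 for miR-762, 0.02 for miR-705, 0.34 for miR-739 and 0.81 for miR-663. Scaled to the spike-ins, the LC Sciences values of these names were 0.29, 0.29, -0.40, -1.53 and -0.72 in the same order.

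Other names that are rich in GC or come from fragments of other RNAs were counted from 2 lists drawn up with these data known. Of the other fragment-derived names on Exiqon, 10 probes were tested, 0 were called higher (9.58% of all probes) and 2 lower (10.9% of all; median 0.08). Those 2 were miR-768-3p (-0.89 ± 0.20 SE, adjusted p = 0.0129 by limma) and miR-699 (-0.69 ± 0.13 SE, adjusted p = 0.00433 by limma). On LC Sciences 3 of 4 reporters were called higher (25.8% of all). Both reporters of miR-923, a name that was withdrawn as a fragment of 28S rRNA, differed by 1.62 (adjusted p = 0.00229 and 0.00329 by limma), and miR-1826 differed by 0.88 (adjusted p = 0.0211 by limma).

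Of the other GC-rich names, 7 of 21 Exiqon probes were called higher (9.58% of all) and 1 lower (10.9% of all; median 0.19, and 0.07 with median centring). The 1 that was lower was miR-714 (-0.71 ± 0.10 SE, adjusted p = 0.0011 by limma). Among the 7, 1 probe of miR-711 turned from 0.85 to -0.35 with median centring. Another probe of miR-711 gave 0.24 (-0.02 with median centring) and was not called. Both names were picked out after their values were seen. The largest were 2 probes of miR-744 (1.78 and 1.06), miR-665 (1.07) and miR-765 (1.05), which were 0.96, 0.53, 0.32 and 0.31 with median centring. One more probe of miR-744 gave -0.05 and was not called. On LC Sciences 4 of 4 reporters were called higher (25.8% of all), with 1.61, 1.35 and 1.67 for the 3 of miR-210, a miRNA induced by hypoxia, and 1.11 for miR-638. The Exiqon probes of miR-210 and miR-638 gave -0.26 and -0.15 and were not called. Scaled to the spike-ins, the reporters of miR-923, miR-1826, miR-210 and miR-638 were all below 0, at -2.03 to -1.25. The median over all reporters tested was -2.71 on this scale.

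The names whose 6 values, centred on the stump mean, lay closest to the median profile of the members were miR-658, miR-602 and miR-765 among 971 names on Exiqon (root mean square distance 0.07, 0.09 and 0.10 on the log2 scale). On LC Sciences they were miR-1576, miR-193 and miR-1777 among 161 names (0.29, 0.38 and 0.40). Of these, miR-1576 and miR-1777 are 2 of the 6 other reporters at or over 65% GC.

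The tissue labels were checked with marker miRNAs. All 11 Exiqon probes for skeletal muscle (miR-1, miR-133a, miR-133b, miR-206 and miR-499) were called lower in blastema (10.9% of all; median -2.48), and their summed Hy3 signal was 1776 to 8182 in blastema and 34702 to 58158 in stump. On LC Sciences 11 of 26 such reporters were called lower (22.4% of all; median -1.83), with a summed signal of 4142 to 41663 against 102107 to 114717. Blood cell markers moved the other way on LC Sciences. Called higher were 5 of 6 reporters for red blood cells and 5 of 5 for the myeloid miR-223 (25.8% of all). Their summed signals were 2825 to 11144 against 1115 to 2011 and 938 to 3036 against 289 to 826. On Exiqon 0 of 8 probes for red blood cells were called (9.58% of all higher, 10.9% lower). The probe of miR-223 was called higher (1.57, and 0.74 with median centring). Scaled to the spike-ins, the LC Sciences medians of the red blood cell and myeloid markers were -0.80 and -1.002, against -2.71 over all reporters tested. The marker of endothelium, miR-126, was called lower by 3 of 3 Exiqon probes (10.9% of all) and 4 of 4 LC Sciences reporters (22.4% of all). That of cartilage, miR-140, was called lower by 3 of 3 Exiqon probes (10.9% of all), and 0 LC Sciences reporters of this exact name were tested. Of the epidermis probes (miR-203, miR-205), 2 of 3 were called lower on Exiqon (10.9% of all) and 3 of 7 higher on LC Sciences (25.8% of all). The part of changed cell types in the members' differences was not tested.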

How the data were processed

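Exiqon arrays were deposited as spot intensity in each channel, uncorrected and not normalized. The log2 ratios (Hy3 to Hy5) deposited beside them had been through normexp and loess at the company and served as an alternative. The deposited LC Sciences values are normalized signals on a linear scale with background taken off by the company for the authors; the methods name Lowess, a global one stands in 2 of the 3 array headers, and the method was not settled here. Scanned spots were read for animal 368 only. Columns of the authors' own comparisons hold group means, ratios and p-values and were not used.

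Exiqon log2 ratios were made with normexp (offset 10) and loess in limma 3.58.1 under R 4.3.3. Flagged spots were dropped, and the 4 spots of a probe were averaged. A probe was kept where 0.5 of its spots were over the background by 2 SD on all arrays of a group. LC Sciences signals under 32 were set to 32, after any scaling. Tests were limma's lmFit and eBayes, with Benjamini-Hochberg adjustment over all probes kept and a threshold of 0.05; scripts were tested on simulated data. Alternatives were other normalizations, filters, floors, a dye term, the methods' t-test, a replicate block and leaving out each animal. The numbers of the labels mark the same animal, so they pair the samples, although the deviations of paired samples correlated at -0.03 to 0.00 on Exiqon and -0.05 to 0.17 on LC Sciences.

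The member names and the lists were chosen with earlier results of these data known. Named beside the members were the controls, called names of both lists (at most 4 per list and platform by size) and the 3 names closest to the members' median profile. Names outside this rule (miR-714, miR-711 and the 6 other reporters at or over 65% GC) were picked out after their values were seen. The number of arrays limits the precision.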

Additional observations from a re-analysis of the deposited data

How the results depend on the processing

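The median over the member names on Exiqon (1.31 with loess) was 0.34 with median centring, 0.19 with a loess on the spike-ins and 0.24 with no normalization within arrays, a setting chosen after the data were seen, and 1.12 to 1.34 when 1 animal was left out. Member probes called higher on Exiqon numbered 1, 0 and 1 under the same 3 settings and 3 to 5 when 1 animal was left out. They numbered 2 with the methods' t-test at its own threshold (5 after Benjamini-Hochberg). How many of all probes the t-test called was not counted, so nothing is read from its counts. The spike-in mean on Exiqon went from 0.76 to 0.14 with median centring and 0.042 with no normalization. Reversed on Exiqon were miR-720 (-0.78 with median centring, -1.04 with a loess on the spike-ins, -0.87 with no normalization and -0.059 in Hy3 alone) and miR-705 (-0.12 with a loess on the spike-ins and -0.082 with no normalization).

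On LC Sciences the median (2.92) was 0.00096 when scaled to the spike-ins, 3.00 with quantile normalization, 1.13 with the GC trend taken off and 2.69 to 2.96 when 1 animal was left out. Reporters called higher (10) numbered 0 when scaled to the spike-ins, 6 with no filter on dim probes and 9 to 11 when 1 animal was left out. Over all reporters, these settings called 2 of 500, 43 of 1974 and 62 to 110 of 500 higher, against 129 of 500. Reversed were miR-739 (-1.53), miR-705 (-0.40) and miR-663 (-0.72) when scaled to the spike-ins, miR-663 (-1.02) with the GC trend taken off, and the spike-ins themselves (-0.17) before normalization on the array of animal 368. The GC slope (0.55) was 0.28 between 35% and 65% GC, a range chosen after the data were seen, and 0.50 to 0.58 when 1 animal was left out.

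Over all probes, Exiqon calls were 193 higher and 219 lower of 2015 tested. Of the same 2015 they were 55 and 263 with median centring, 24 and 249 with a loess on the spike-ins, and 22 and 249 with no normalization. They were 80 to 176 and 88 to 185 when 1 animal was left out. LC Sciences calls (129 and 112 of 500 tested) were 2 and 423 when scaled to the spike-ins and 43 and 36 with no filter (1974 tested). They were 62 to 110 and 43 to 95 when 1 animal was left out.

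With the animal as a replicate block, the paired fit called 5 member probes higher on Exiqon and 10 on LC Sciences, as without it. It left the medians at 1.31 and 2.92. Over all probes it called 154 of 2015 higher on Exiqon and 123 of 500 on LC Sciences, against 193 and 129 without the block. The cause of these dependences was not tested beyond the construction of each scale. Dim signals limit miR-663 and miR-705 on LC Sciences, gga-miR-762 (1 stump value under the floor) and the second probe of miR-705 on Exiqon.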
